A study of Mus musculus with 2 samples.

Results

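Kupffer-cell-rich spots are capture spots of 10x Visium mouse liver sections that held RNA of the resident macrophages of the liver. They were chosen on their own UMI counts, within each section alone, among spots over tissue with 3000 or more UMIs. A spot was called rich where the markers Clec4f, Cd5l and Vsig4 together had 2 or more UMIs and Clec4f had at least 1, and it was compared with spots that had 0 UMIs of the 3. This rule selected 2318 of the 7286 spots over tissue in both sections. In the NCD section, 710 of the 2107 spots with enough UMIs were rich and 600 had no marker UMI. Of 3538 such spots in the HFD section, 1608 were rich and 595 had none.

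Visium counts each captured RNA molecule once, through its unique molecular identifier (UMI), at barcoded spots that each cover several cells. The samples are 1 liver section of 10 µm from 1 mouse on a normal chow diet (NCD) and 1 such section from 1 mouse on a high-fat diet (HFD). Both mice were male C57BL/6J animals bought at 5 weeks of age and acclimated for 1 week. Both spent 14 weeks on their diet, in the HFD case with 60% fat, and both received distilled water by gavage over 8 weeks of intervention. Diet, animal, section and capture area cannot be told apart. No test was possible with 1 section per diet, spots of a section are not replicates, and the exact 95% intervals below account for counting error alone. The sample records name the cells as immune cells and hematopoietic stem cells, whereas Alb, the albumin gene of hepatocytes, stood at 57885 CPM (counts per 1000000 UMIs) in rich spots of the NCD section and 55686 CPM in those of the HFD section.

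Kupffer cells sit inside the liver sinusoids, where they clear particles, bacteria and dying cells from the blood and recycle the iron of old red blood cells. Clec4f, a C-type lectin, is found in the liver almost only on these cells. Cd5l encodes a secreted scavenger protein of tissue macrophages, and Vsig4 a complement receptor that binds C3b-coated particles. In a spot of tissue, fewer Kupffer cells and less marker RNA per cell cannot be told apart.

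The marker genes lie in different parts of the genome. On GRCm38, with GENCODE M21, Clec4f is at chr6:83644542-83656187 on the minus strand, Cd5l at chr3:87357881-87371073 on the plus strand and Vsig4 at chrX:96247203-96293438 on the minus strand. Wfdc17 (chr11:83703991-83706268, plus strand) and Ccl6 (chr11:83587882-83593087, minus strand), both of them higher in rich spots of each section, lie on the same chromosome. RefSeq promoter windows of 300 bases, from 250 before to 50 after the start of a transcript (GRCm38.p6), were found for 10 of the 13 marker and partner genes. They were searched on both strands for GAGGAA, the core of the site of PU.1, the lineage factor of macrophages. Of 11 windows, 6 held it, against 28.3% of all 32851 windows of the same length. A match is a run of letters and not a site in use. Among partners whose windows are not printed, Folr2, Ccl6 and Il1b held no match, and Cfp and Clec12a did. The windows of the 3 markers and of Wfdc17 and Ctss are printed as examples, each 5′ to 3′ on the strand of its gene. Capitals mark GAGGAA or its reverse complement.
Clec4f, chr6:83656067-83656366, minus strand: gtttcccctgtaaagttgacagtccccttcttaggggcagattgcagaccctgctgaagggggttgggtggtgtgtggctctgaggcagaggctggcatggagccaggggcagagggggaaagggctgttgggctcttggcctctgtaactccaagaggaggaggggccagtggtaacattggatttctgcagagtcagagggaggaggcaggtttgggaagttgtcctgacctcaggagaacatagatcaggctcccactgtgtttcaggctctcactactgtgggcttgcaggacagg
Cd5l, chr3:87357631-87357930, plus strand: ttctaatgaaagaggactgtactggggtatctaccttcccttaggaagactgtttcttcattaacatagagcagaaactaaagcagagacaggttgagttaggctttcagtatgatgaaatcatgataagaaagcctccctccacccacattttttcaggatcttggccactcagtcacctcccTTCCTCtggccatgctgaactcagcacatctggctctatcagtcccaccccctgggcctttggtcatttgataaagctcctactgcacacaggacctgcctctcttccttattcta
Vsig4, chrX:96293389-96293688, minus strand: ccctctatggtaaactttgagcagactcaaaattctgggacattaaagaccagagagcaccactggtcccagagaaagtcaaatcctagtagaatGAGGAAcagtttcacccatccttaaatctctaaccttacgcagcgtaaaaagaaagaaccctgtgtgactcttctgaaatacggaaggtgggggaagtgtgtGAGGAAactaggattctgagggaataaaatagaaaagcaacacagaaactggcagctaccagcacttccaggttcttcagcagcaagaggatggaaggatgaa
Wfdc17, chr11:83703806-83704105, plus strand: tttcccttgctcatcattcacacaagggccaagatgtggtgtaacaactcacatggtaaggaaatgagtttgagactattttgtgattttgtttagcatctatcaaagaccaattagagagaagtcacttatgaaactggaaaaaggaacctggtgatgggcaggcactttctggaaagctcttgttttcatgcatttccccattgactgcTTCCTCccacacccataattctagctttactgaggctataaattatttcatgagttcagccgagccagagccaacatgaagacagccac
Ctss, chr3:95526536-95526835, plus strand: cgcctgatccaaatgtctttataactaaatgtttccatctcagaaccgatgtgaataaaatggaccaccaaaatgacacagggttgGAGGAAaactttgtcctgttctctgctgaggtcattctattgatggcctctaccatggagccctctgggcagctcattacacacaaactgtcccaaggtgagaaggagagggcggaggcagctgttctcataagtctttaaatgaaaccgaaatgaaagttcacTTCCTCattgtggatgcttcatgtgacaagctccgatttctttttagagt

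The rule picked different mixtures of markers in the 2 sections. Rich spots made up 33.7% (31.7–35.8) of the spots with 3000 or more UMIs in the NCD section and 45.4% (43.8–47.1) of those in the HFD section. Of all spots over tissue, they were 710 of 3692 and 1608 of 3594. They carried a median of 4 marker UMIs and at most 25 in the NCD section, and a median of 5 and at most 44 in the HFD section. All 3 markers were found in 43.2% of the rich spots of the NCD section and in 33.1% of those of the HFD section. The pair of Clec4f and Cd5l without Vsig4 made up 39.9% and 59.5%. The markers themselves chose these spots, and their levels are a description. In rich spots, Clec4f stood at 96.0 CPM in the NCD section and 92.1 CPM in the HFD section, Cd5l at 99.4 and 156 CPM, and Vsig4 at 46.5 and 24.5 CPM. Over all spots with 3000 or more UMIs, Clec4f was likewise close between the sections, at 51.9 and 49.2 CPM, while Cd5l stood at 79.3 and 116 CPM and Vsig4 at 35.8 and 16.9 CPM.

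Rich spots were deeper than spots without a marker, which any rule on a count of UMIs favours. The median was 16162 UMIs against 5892 in the NCD section and 21698 against 13053 in the HFD section. The shallowest of 10 depth bins of the NCD section held 19 rich and 112 marker-free spots, and the deepest held 126 and 5. Mitochondrial genes took 8.56% of the UMIs of rich spots and 8.53% of those of marker-free spots in the NCD section, and 5.20% and 6.98% in the HFD section. Of the spot barcodes, 3173 were present in both sections, since barcodes mark positions in every capture area.

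Spots called off tissue also held RNA, and the same rule was applied to them. In the NCD capture area, 741 of 1300 spots off tissue had 3000 or more UMIs and 128 of these met the rule (17.3%, 14.6–20.2). After each spot was thinned at random to 3000 UMIs, the rule selected 5.53% (3.9995–7.43) of spots off tissue and 5.65% (4.70–6.72) over tissue. At matched depth these shares could not be separated in the NCD capture area. In the HFD capture area only 142 of 1398 spots off tissue had enough UMIs, and 2.11% (0.438–6.05) of them met the rule after thinning, against 6.16% (5.39–7.005) over tissue. The 3 markers together stood at 160 CPM off tissue and 167 CPM over tissue in the NCD capture area, and at 156 and 182 CPM in the HFD capture area. Where the RNA off tissue came from, and its part in the results below, were not tested.

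The label was checked with each marker in turn left out of the rule, so that spots with 2 or more UMIs of the other 2 were compared with spots with none of them. In the NCD section the log2 ratio of the marker left out was 0.67 (0.47–0.88) for Clec4f, 0.53 (0.39–0.68) for Cd5l and 0.99 (0.72–1.28) for Vsig4. The HFD section gave 1.42 (1.251–1.59) for Clec4f, 1.20 (1.12–1.27) for Cd5l and 1.96 (1.58–2.37) for Vsig4. Each marker was thus higher where the others were found, in both sections. With spots thinned before the rule was applied, the ratios were 1.04, 1.05 and 0.88 in the NCD section and 1.29, 1.12 and 1.31 in the HFD section, in the same order of markers.

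Few genes differed by 1.5-fold or more between rich and marker-free spots, which is a log2 ratio of 0.585. Of 7615 genes with 100 or more UMIs in the NCD section, 67 were higher (0.88%) and 153 lower (2.01%). Of 10572 genes in the HFD section, 275 were higher (2.6%) and 299 lower (2.83%). Among the 7594 genes that could be read in both sections, 15 were higher in both (0.198%) and 32 lower in both (0.421%). The 15 made up 23.8% of the 63 genes higher in the NCD section and 15.8% of the 95 higher in the HFD section. The 32 were 21.6% of the 148 lower genes of the NCD section and 40.5% of the 79 of the HFD section. Over the 7594 genes the log2 ratios of the 2 sections had a Pearson r of 0.24 and a Spearman rho of 0.12, given as a description since genes of a section share its spots and its depth.

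**Figure D1:**
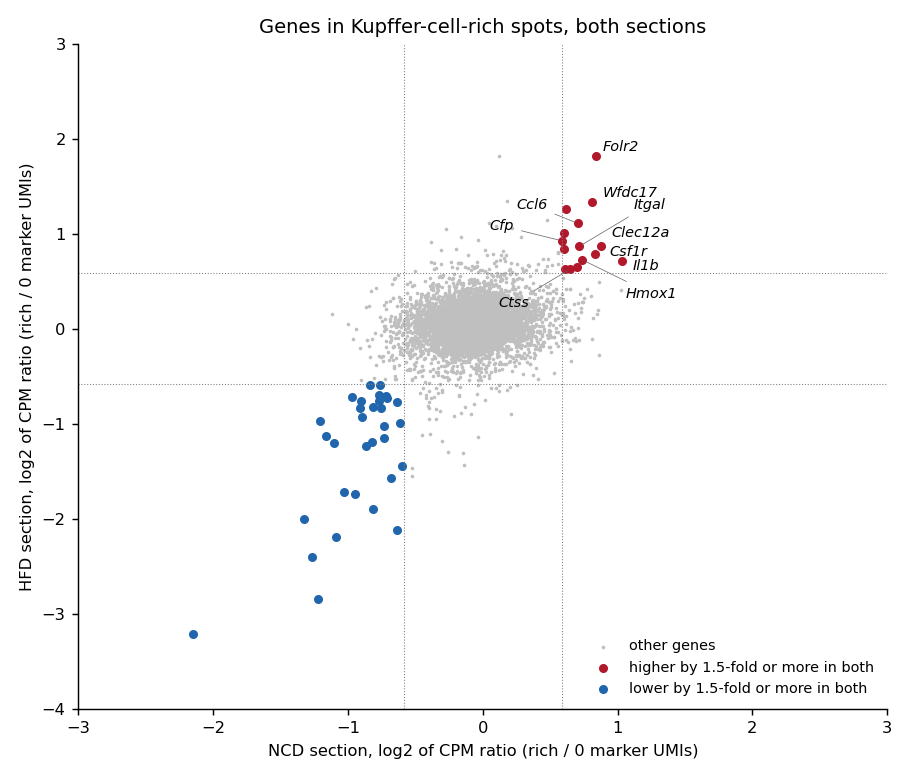
Each point is 1 of 7594 genes, with the log2 ratio of pooled CPM in Kupffer-cell-rich spots over spots with 0 marker UMIs in the NCD section (x axis) and in the HFD section (y axis). Dotted lines mark 1.5-fold, 2 genes lie outside the axes, and the 10 named genes among the 15 red points are those whose 95% interval lay above 1 in both sections.

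Of the 15 genes higher in both sections, 10 had an interval above 1 in each and are called shared partners here. Most are known from macrophages and other myeloid cells, and Itgal and Hmox1 are also made by other cells. Wfdc17, a small secreted protein of activated macrophages, had the highest lower end of the interval among the 10 in the NCD section and came after Folr2 in the HFD section. It stood at 150 CPM in rich spots (1974 UMIs) and 85.5 CPM in marker-free spots (392 UMIs) of the NCD section (log2 0.81, 0.65–0.97). The HFD section had 163 and 64.7 CPM of it, with 5984 and 623 UMIs and a log2 ratio of 1.33 (1.22–1.46). At least 1 Wfdc17 UMI was found in 80.3% of the rich and 40.7% of the marker-free spots of the NCD section, and in 33.8% and 22.0% after thinning. Its shares in the HFD section were 89.6% and 55.5%, and 38.6% and 18.3% after thinning. Ccl6, a chemokine of myeloid cells, stood at 21.3 against 13.1 CPM (log2 0.71, 0.30–1.13) in the NCD section and 54.5 against 25.2 CPM (1.11, 0.92–1.31) in the HFD section.

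Of the shared partners, 4 were surface receptors. Folr2, the folate receptor of resident macrophages, stood at 14.8 against 8.29 CPM (log2 0.84, 0.33–1.38) in the NCD section and at 17.2 against 4.88 CPM (1.82, 1.39–2.28) in the HFD section. Csf1r, the receptor through which macrophages receive their survival signal, stood at 30.2 against 17.0 CPM (0.83, 0.48–1.20) and at 55.5 against 32.2 CPM (0.78, 0.61–0.96). Clec12a, an inhibitory lectin of myeloid cells, had a log2 ratio of 0.88 in both sections (0.21–1.61 and 0.54–1.23). Itgal, the alpha chain of the leukocyte integrin LFA-1, had 0.71 (0.02–1.47) in the NCD section, where its interval only just cleared 0, and 0.87 (0.54–1.21) in the HFD section.

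Secreted and intracellular proteins made up the rest. Il1b, the inflammatory cytokine, stood at 10.3 against 5.02 CPM (log2 1.03, 0.39–1.74) in the NCD section and at 4.45 against 2.70 CPM (0.72, 0.12–1.38) in the HFD section. Hmox1, which breaks down heme, had 0.74 (0.25–1.253) and 0.73 (0.48–0.99). Ctss, a lysosomal protease of antigen-presenting cells, had 0.65 (0.37–0.94) and 0.63 (0.51–0.75), and Cfp, properdin, which stabilises the alternative complement convertase, had 0.59 (0.22–0.97) and 0.93 (0.68–1.18). The remaining 5 of the 15 genes, Cd84, Susd4, Cd300ld, Pla2g7 and Slc15a3, reached 1.5-fold in both sections with an interval that held 1 in at least 1 of them. Of these, Cd84, Susd4, Cd300ld and Slc15a3 are named after their values were seen.

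The shared partners were read again with depth held equal. When the 2 groups of spots were thinned to 3000 UMIs each, all 10 stayed above 1 in both sections and 6 of them at 1.5-fold or more in both. Standardized over 10 bins of depth, all 10 were at 1.5-fold or more in both, with log2 ratios of 0.97 to 1.48 (NCD) and 0.62 to 1.92 (HFD). Standardized over depth and over the lobule zone of a spot, 9 of 10 were, and with the rule applied after thinning 8 of 10. With both groups thinned, Cfp had 0.22 and 0.46, Itgal 0.22 and Folr2 1.34 in the HFD section, and Il1b 0.56 in the NCD section. With the rule applied after thinning, Il1b had 0.20 in the NCD section and Folr2 1.24 in the HFD section.

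**Figure D2:**
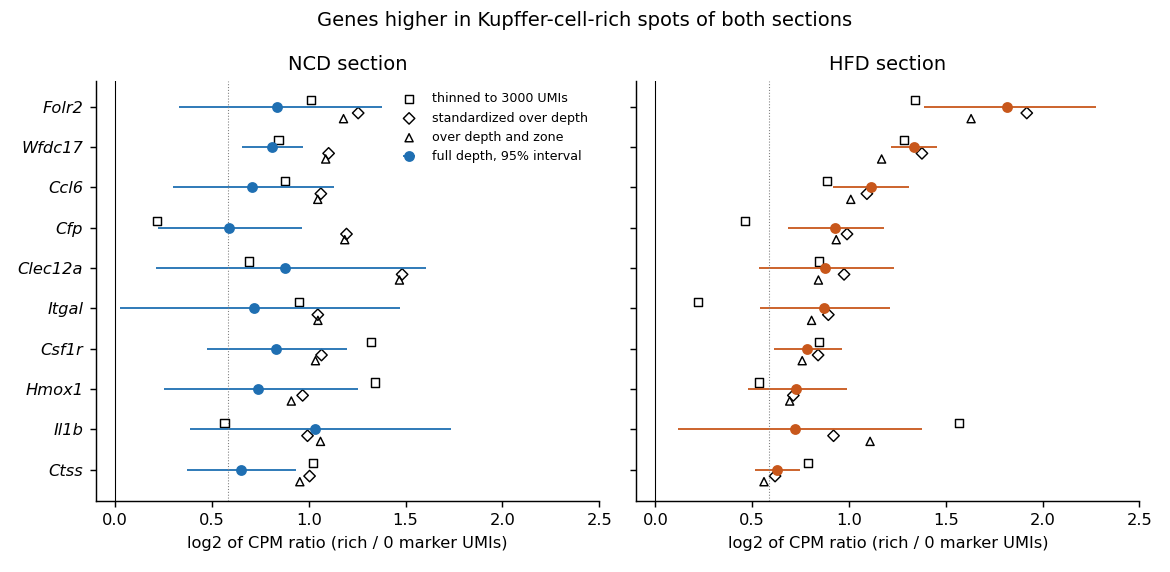
Log2 ratio of pooled CPM in Kupffer-cell-rich over marker-free spots (x axis) for the 10 shared partners, NCD section on the left and HFD section on the right. Filled points with 95% intervals are full depth, open squares spots thinned to 3000 UMIs, open diamonds ratios standardized over depth and triangles over depth and zone, and the dotted line is 1.5-fold.

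Spots near the limit of the rule overlapped in level on its 2 sides. In the HFD section, Wfdc17 stood at 64.7 CPM in spots with 0 marker UMIs, 76.6 CPM with 1, 91.0 CPM with 2 but none of Clec4f, 96.2 CPM with 2 including Clec4f, 121 CPM with 3 and 181 CPM with 4 or more. In the NCD section the same classes had 85.5, 110, 133, 121, 126 and 163 CPM. Spots with 3 or more marker UMIs but none of Clec4f, which the rule leaves out, numbered 416 in the HFD and 131 in the NCD section. At full depth they had 128 and 137 CPM of Wfdc17, above the spots with 2 or 3 that the rule takes. Their intervals overlapped those of spots with 3 including Clec4f. Thinned to 3000 UMIs, they had 124 and 145 CPM, below the 133 and 165 CPM of spots with 3 including Clec4f. The summed Kupffer core list described next showed the same overlap. With 2 marker UMIs it had 382 CPM without and 375 CPM with Clec4f in the HFD section, and 508 and 492 CPM in the NCD section. With 3 or more and no Clec4f it had 434 and 573 CPM, against 411 and 528 CPM with 3 including Clec4f and 504 and 561 CPM with 4 or more.

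**Figure D3:**
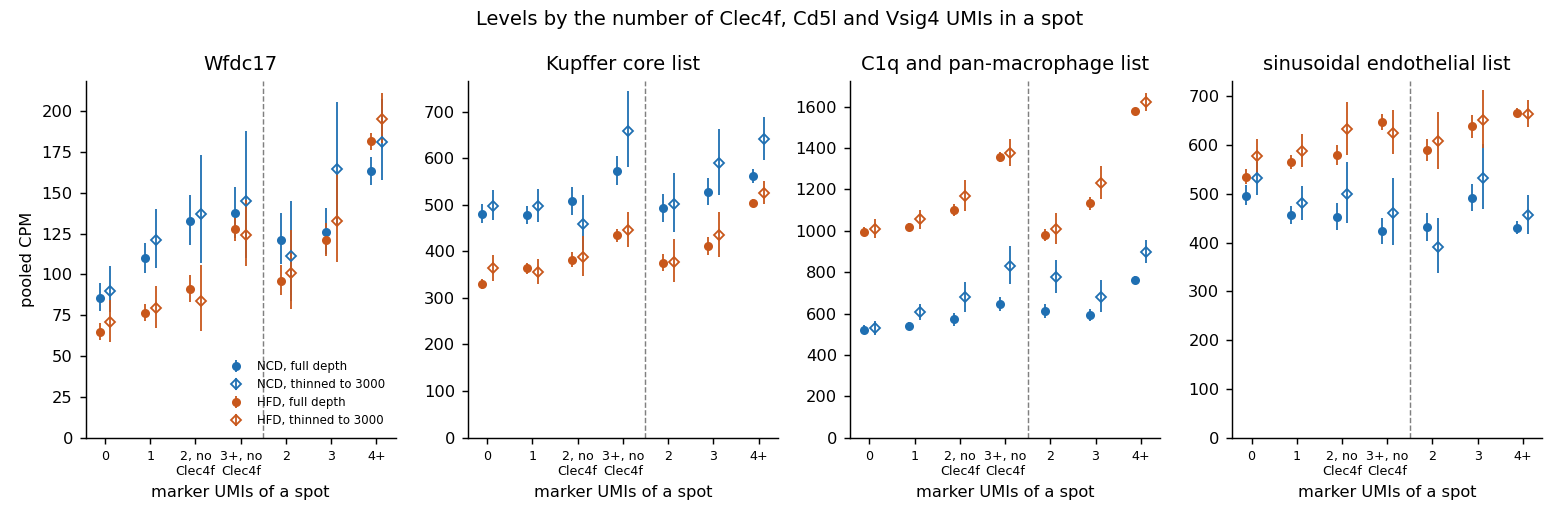
Pooled CPM (y axis, from 0) of Wfdc17 and of 3 summed gene lists in spots classed by their UMIs of Clec4f, Cd5l and Vsig4 (x axis; the last 3 classes, 2, 3 and 4+, include Clec4f), with 95% counting intervals. The dashed line is the limit of the rule, filled points are full depth and open points spots thinned to 3000 UMIs; Wfdc17 in the HFD section goes from 64.7 CPM at 0 to 181 CPM at 4 or more.

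Known Kupffer cell genes outside the rule were higher as a group. The Kupffer core list, 20 genes of resident Kupffer cells without the 3 markers, summed to 545 CPM in rich and 481 CPM in marker-free spots of the NCD section (log2 0.18, 0.11–0.25). It summed to 477 and 330 CPM in the HFD section, a log2 ratio of 0.53 (0.48–0.59). Of its genes with enough UMIs, 5 of 14 in the NCD section and 8 of 12 in the HFD section were higher by 1.5-fold or more and 0 were lower, beside the 0.88% and 2.6% of all genes given above. The median log2 ratio of these genes was 0.40 and 0.85, against −0.06 and 0.06 over all genes read. Some members ran the other way in the NCD section: Id3, a transcriptional regulator, had −0.30 (−0.45 to −0.14) there and 0.20 (0.08–0.31) in the HFD section, and Itga9, an integrin chain, −0.54 (−1.05 to −0.005) and 0.31 (0.03–0.61). The NCD value depended on depth, and was 0.40 when standardized over depth, from 1.15 in the shallowest bin to 0.06 and 0.27 in the 2 deepest. The 10 bins of the HFD section ran from 0.36 to 0.72.

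Receptors that mark long-lived Kupffer cells differed in level between the sections. Timd4, a receptor for phosphatidylserine on dying cells, had 127 UMIs in rich and 18 in marker-free spots of the NCD section (9.65 and 3.93 CPM, log2 1.297, 0.58–2.10). Its counts in the HFD section were 51 UMIs in rich spots and 1 in marker-free spots (1.39 and 0.104 CPM, log2 3.74, 1.20–9.07). Marco, a scavenger receptor for bacteria, stood at 16.7 against 8.51 CPM in the NCD section and 2.45 against 0.831 CPM in the HFD section. Cd163, the receptor for haemoglobin bound to haptoglobin, stood at 6.91 against 3.93 CPM and at 0.709 against 0.104 CPM. All 3 were thus higher in rich than in marker-free spots of each section at full depth, where Cd163 had a log2 ratio of 0.82 in the NCD section on 91 and 18 UMIs, which turned to −0.24 with both groups thinned. They were scarcer in the rich spots of the HFD section than in those of the NCD section. Timd4, Marco and Cd163 had too few UMIs in the HFD section to enter the count of genes there.

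At full depth, other Kupffer cell genes had larger ratios in the HFD than in the NCD section. Cd207, langerin, stood at 3.19 against 2.18 CPM in the NCD section and at 16.1 against 6.03 CPM in the HFD section (log2 1.42, 1.03–1.84). Clec1b, a lectin receptor, had log2 ratios of 0.22 (−0.14 to 0.58) and 1.06 (0.78–1.35). Fcna, ficolin A, a lectin that starts the complement cascade, stood at 71.8 against 51.7 CPM (0.47, 0.27–0.68) in the NCD section and at 37.4 against 16.8 CPM (1.15, 0.91–1.39) in the HFD section. Il18bp, the secreted inhibitor of interleukin 18, had 0.58 (0.17–1.02) and 1.01 (0.78–1.254). Slc40a1, ferroportin, which exports iron from macrophages, had 0.32 (0.16–0.49) and 0.62 (0.47–0.77). C6, a complement component, had values of 0.05 and 0.17, and Nr1h3, the LXR alpha gene that hepatocytes also express, −0.01 and 0.19. With the rule applied after thinning this order turned for Fcna, at 1.27 (NCD) and 1.05 (HFD), and for Il18bp, at 1.66 and 0.78. It held for Clec1b, at 0.45 and 1.08, and for Cd207, at 0.009 and 1.10. With both groups thinned, Il18bp had 1.03 and 0.31, Cd207 0.89 and 0.94, Fcna 0.67 and 1.06 and Clec1b −0.18 and 1.09.

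Pan-macrophage genes were higher in rich spots of both sections. The list of C1q and pan-macrophage genes summed to 707 against 522 CPM in the NCD section (log2 0.44, 0.37–0.50) and to 1448 against 996 CPM in the HFD section (0.54, 0.51–0.57). The genes at 1.5-fold or more were 4 of 17 in the NCD section and 9 of 20 in the HFD section, with 0 lower, against 0.88% and 2.6% of all genes higher. Standardized over depth the list had 0.80 and 0.55. C1qa, C1qb and C1qc, the chains of the first component of complement that lie side by side on chromosome 4, had log2 ratios of 0.60, 0.49 and 0.56 in the NCD section and 0.54, 0.73 and 0.79 in the HFD section. Cd68, a lysosomal protein of macrophages, had 1.02 (0.39–1.71) and 0.41 (0.20–0.63), and Adgre1, which encodes F4/80, 0.56 (0.02–1.13) and 0.81 (0.56–1.06). Lyz2, the lysozyme of myeloid cells, had 0.28 and 0.23, and Laptm5 0.15 in both.

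A further set of genes stood out in the HFD section, and the difference between the sections was not tested for any of them. Fabp7, a fatty acid binding protein, stood at 9.27 against 8.51 CPM in the NCD section (log2 0.12, −0.41 to 0.68) and at 15.1 against 4.26 CPM in the HFD section (1.82, 1.36–2.32). Ear2, a ribonuclease of a family whose near-identical members may share reads, had 1.48 (1.10–1.88) in the HFD section and, with 68 and 9 UMIs, 1.40 (0.39–2.58) in the NCD section. Fpr1, the receptor for bacterial formyl peptides, had 2.01 (1.04–3.17) in the HFD section, Adgre4, a relative of F4/80, 1.56 (0.90–2.30), the chemokine Ccl24 1.53 (0.77–2.40) and the lipid mediator hydrolase Pla2g7 1.26 (0.87–1.68). Fpr1, Adgre4 and Ccl24 had too few UMIs in the NCD section to be counted there. In the HFD section they had 9, 20 and 15 UMIs in marker-free spots and passed the limit through the rich spots. Cd300c2, an activating receptor of myeloid cells, was named by the NCD section with 0.86 (0.28–1.48) and had 0.49 (0.22–0.77) in the HFD section.

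Lipid-associated macrophage genes did not move as a group. The summed list was lower in rich spots, at 131 against 180 CPM in the NCD section (log2 −0.46, −0.58 to −0.33) and 446 against 592 CPM in the HFD section (−0.41, −0.45 to −0.37), while its median gene had −0.30 and 0.25. The NCD value was −0.14 standardized over depth, −0.06 over depth and zone, and turned to 0.22 with the rule applied after thinning. Spp1, osteopontin, which bile duct cells also make, was its most abundant gene and had −1.16 and −1.13. In the HFD section Mmp12, a macrophage elastase, had 0.89 (0.63–1.16), Trem2, a lipid-sensing receptor, 0.53 (0.23–0.84) and Gpnmb 0.30 (0.05–0.55). Trem2 was found in 433 of 1608 rich spots of the HFD section (26.9%, 24.8–29.2) and in 24 of 710 of the NCD section (3.38%, 2.18–4.99), and after thinning in 4.35% and 0.704%. Gpnmb was found in 28.2% of rich and 21.2% of marker-free spots of the HFD section. After thinning its shares were 5.29% and 5.71%. In the NCD section Trem2, Gpnmb and Mmp12 had too few UMIs to be counted. Lysosomal genes were close to even, at 0.04 and 0.15 for the summed list, with 0 of 12 genes past 1.5-fold in either section. MHC class II genes had 0.04 and −0.10. The NCD value became 0.47 when standardized over depth and 0.73, past 1.5-fold, with the rule applied after thinning, and the HFD value 0.435 without vessel and plasma spots. Interferon-stimulated genes had −0.09 and 0.11. The summed monocyte list had −0.03 and 0.00, but Fn1, fibronectin, which hepatocytes also make, held 97.1% and 93.6% of its UMIs. Of its genes read in the HFD section, 2 of 5 were lower by 1.5-fold or more, against 2.83% of all genes. These were S100a4 at −1.07 (−1.35 to −0.79) and the chemokine receptor Ccr2 at −0.69 (−1.18 to −0.17). In the NCD section 0 of 2 were, against 2.01% of all genes.

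A few genes of heme and iron handling were higher in rich spots. Of this list, 2 of 10 genes in the NCD section and 3 of 11 in the HFD section were at 1.5-fold or more and 0 lower, against 0.88% and 2.6% of all genes. Besides Hmox1, these were Cd163 in the NCD section, on few UMIs as given above, and Slc40a1 and Slc11a1, the iron transporter of phagosomes, at 0.62 and 0.65 in the HFD section. Hmox1, Cd163 and Slc40a1 are also members of the Kupffer core list and were counted there. The summed heme list had 0.08 and 0.05, since Trf, transferrin, and Hpx, hemopexin, which hepatocytes secrete, and ferritin make up most of it. Of the transcription factors of macrophages, Spi1, which encodes PU.1, had 0.49 and 0.28, and 0 of 9 and 0 of 10 passed 1.5-fold. The ligands of the Kupffer cell niche had −0.13 (−0.22 to −0.03) and 0.06 (−0.01 to 0.13), with Vcam1, an adhesion molecule of the sinusoid, at 0.66 in the HFD section.

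**Figure D4:**
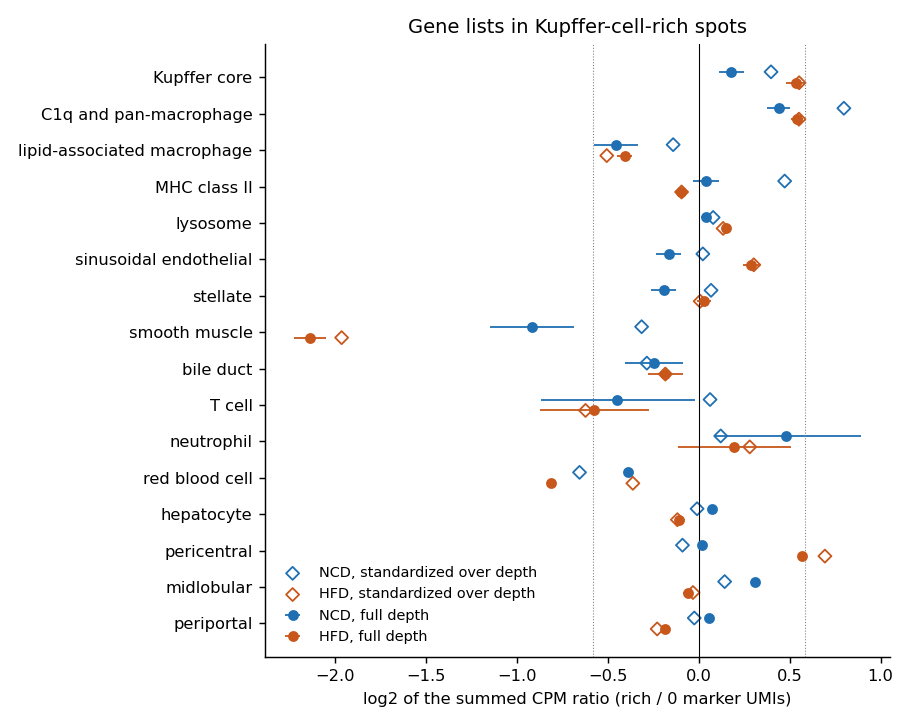
Log2 ratio of the summed CPM of 16 gene lists (rows) in Kupffer-cell-rich over marker-free spots (x axis), NCD section in blue and HFD section in orange. Filled points with 95% counting intervals are full depth and open diamonds are standardized over depth; dotted lines mark 1.5-fold, and only the smooth muscle list (both sections) and the red blood cell list (HFD) pass the lower one at full depth.

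The cells that share the sinusoid with Kupffer cells were read the same way. Sinusoidal endothelial genes summed to 442 against 497 CPM in the NCD section (log2 −0.17, −0.24 to −0.10) and to 654 against 535 CPM in the HFD section (0.29, 0.24–0.33). There 2 of 15 genes were at 1.5-fold or more, against 2.6% of all genes, Stab2, a hyaluronan scavenger receptor, at 0.65 and Mrc1, the mannose receptor, at 0.65, and the NCD section had none of 15. The NCD value was 0.02 when standardized over depth. Stellate cell genes had −0.19 (−0.26 to −0.12) and 0.03 (−0.01 to 0.06), and the NCD value turned to 0.07 when standardized over depth and 0.34 with the rule applied after thinning. Of these genes, 2 of 9 in the NCD section and 3 of 11 in the HFD section were lower by 1.5-fold or more, and 0 and 1 higher. Over all genes 2.01% and 2.83% were lower by as much, and 0.88% and 2.6% higher. Dcn, decorin, the most abundant stellate gene, had −0.11 and 0.20.

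Genes of vessel walls and portal tissue were lower in rich spots. Among the 32 genes lower in both sections were Acta2 and Tagln, which encode contractile proteins of smooth muscle, Mgp, an inhibitor of vessel calcification, and Gsn, gelsolin. Acta2 stood at 6.61 against 15.9 CPM (log2 −1.27, −1.73 to −0.80) in the NCD section and at 14.3 against 75.4 CPM (−2.40, −2.56 to −2.23) in the HFD section. Ccl21a, a chemokine of lymphatic vessels with near-identical copies in the genome, had −2.15 and −3.21, Mgp −1.23 and −2.85 and Gsn −1.09 and −2.19. In the smooth muscle list, 3 of 3 genes in the NCD section and 6 of 6 in the HFD section were lower by 1.5-fold or more, against 2.01% and 2.83% of all genes, and the list summed to 29.6 against 55.9 CPM and to 52.9 against 234 CPM. With the rule applied after thinning, the NCD value of this list turned from −0.92 to 0.47 and that of Acta2 to 0.78, while the HFD list had −1.95. Depth moved with this result more in the NCD section: standardized over depth, the HFD section kept 31 of the 32 genes lower by 1.5-fold or more and the NCD section 7. Without the spots that held 3 or more smooth muscle UMIs or 10 or more B and plasma cell UMIs, 11 of the 32 stayed so in both, and the smooth muscle list, whose own UMIs removed those spots, had −0.45 and −0.62.

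Immunoglobulin genes had large ratios to which single spots contributed. Iglc1, a light chain of antibodies, stood at 12.8 against 459 CPM in the NCD section, and 1 marker-free spot held 1797 of its UMIs (79.1%). Its log2 ratio of −5.17 was −2.39 without that spot. Ighm and Jchain, the heavy chain and joining chain of IgM, had 66.4% and 55.4% of their UMIs in 1 spot and log2 ratios of −3.43 and −3.22, which became −0.78 and −1.37 without that spot. Ighg2b ran the other way, at 2.34, with 58.6% of its UMIs in 1 spot and 0.93 without it. Iglc2 had 206 UMIs in rich and 1 in marker-free spots of the HFD section, 43.5% of them in 1 spot, and its log2 ratio of 5.76 was 4.93 without it. The B and plasma cell list had −3.47 in the NCD section and −0.45 without vessel and plasma spots. Of its defining genes, Cd79a, part of the B cell receptor, was at 1.06 against 1.09 CPM in the NCD section and at 0.491 against 0.416 CPM in the HFD section.

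Red blood cell genes were lower in rich spots of both sections, by an amount that depended on depth. They summed to 6229 against 8164 CPM in the NCD section (log2 −0.39, −0.41 to −0.37) and to 1063 against 1867 CPM in the HFD section (−0.81, −0.84 to −0.79). Of these genes, 0 of 5 and 4 of 5 were lower by 1.5-fold or more, against 2.01% and 2.83% of all genes. The NCD value was −0.66, past 1.5-fold, when standardized over depth and −0.09 with the rule applied after thinning. The HFD value was −0.36 when standardized over depth and −0.245 with the rule applied after thinning, both short of 1.5-fold. With both groups thinned it was −1.38. T cell genes had −0.45 (−0.87 to −0.02) and −0.58 (−0.87 to −0.27), on 9.06 to 15.5 CPM in all, and 0.35 and −0.02 with the rule applied after thinning. Dendritic cell genes had 0.12 and −1.07 (0.005 in the HFD section with the rule applied after thinning). The summed bile duct list had −0.25 and −0.18, with 90.8% and 86.5% of its UMIs from Cldn3, a tight junction gene. Of its genes read in the HFD section, 3 of 4 were lower by 1.5-fold or more, against 2.83% of all genes. Their median was −1.26 over all 4, and Krt19, a keratin of bile ducts, had −1.93 (−2.50 to −1.36). Neutrophil genes had 0.48 (0.08–0.89) and 0.19 (−0.11 to 0.51), which turned to −2.12 and −0.50 with the rule applied after thinning, and natural killer cell genes −0.16 and −0.06. The part of these cell types in the ratios of the partners was not tested; without vessel and plasma spots the 10 partners had log2 ratios of 0.62 to 1.12 (NCD) and 0.57 to 1.54 (HFD).

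The place of rich spots in the lobule was read from hepatocyte genes, which differ between the portal and the central end. In the HFD section the pericentral list was higher in rich spots, at 7984 against 5397 CPM (log2 0.56, 0.55–0.58). Of its genes read there, 6 of 10 were higher by 1.5-fold or more, against 2.6% of all genes. Glul, glutamine synthetase of the hepatocytes next to the central vein, stood at 480 against 294 CPM (0.71), Rhbg, an ammonium transporter, at 16.2 against 7.79 CPM (1.05) and Slc1a2, a glutamate transporter, at 84.6 against 47.7 CPM (0.83). In the NCD section the list had 0.02 (0.00–0.03) and Glul −0.38 (−0.44 to −0.32). Depth moved with the HFD value: it was 0.00 in the shallowest of 10 depth bins and 1.53 in the deepest, 0.69 when standardized over depth, 0.32 after thinning of the 2 groups and 0.11 with the rule applied after thinning. Without vessel and plasma spots the HFD value of the pericentral list was 0.285. Periportal genes had 0.06 and −0.19, and the genes that hepatocytes express throughout the lobule 0.07 and −0.11.

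Midlobular genes had a log2 ratio of 0.31 (0.28–0.33) in the NCD section and of −0.06 (−0.09 to −0.03) in the HFD section. The NCD value was 0.14 when standardized over depth and 0.09 with the rule applied after thinning. Hamp, the gene of hepcidin, the iron hormone of hepatocytes, stood at 4384 against 3443 CPM in the NCD section (0.35, 0.32–0.37) and at 583 against 653 CPM in the HFD section (−0.16, −0.20 to −0.12). When spots were split into tertiles by their ratio of pericentral to periportal UMIs and the rule was applied after thinning, rich spots made up 5.12% (3.61–7.02) of the most periportal, 7.69% (5.83–9.92) of the middle and 4.13% (2.78–5.88) of the most pericentral tertile of the NCD section. In the HFD section the shares were 4.15% (3.09–5.45), 8.14% (6.65–9.85) and 6.19% (4.88–7.72). The middle tertile had the highest share in both sections at matched depth, though its interval overlapped that of at least 1 other tertile in each. At full depth the order in the HFD section was different, with 40.3%, 47.2% and 48.9%, and the most periportal spots there were the deepest, with a median of 24512 UMIs.

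**Figure D5:**
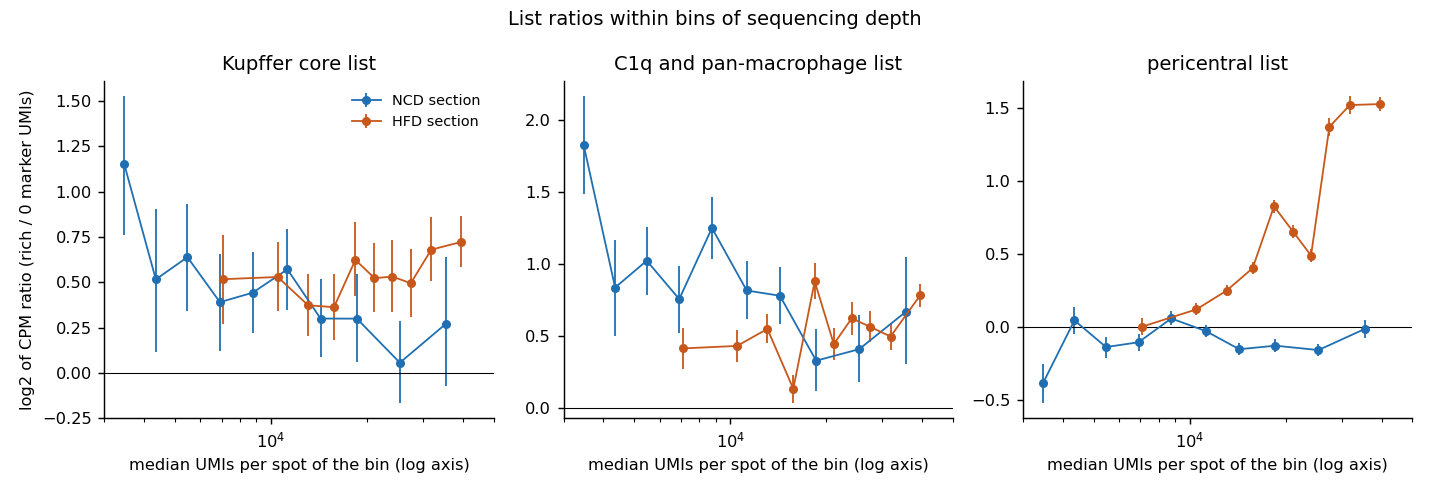
Log2 ratio of summed CPM in Kupffer-cell-rich over marker-free spots (y axis) for 3 gene lists within 10 bins of UMIs per spot (x axis, log scale, at the bin's median), with 95% counting intervals. The Kupffer core ratio is above 0 in all bins of both sections, with an interval that includes 0 in the 2 deepest NCD bins, and the pericentral ratio climbs with depth in the HFD section, from 0.00 to 1.53.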

How the data were processed

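The data were UMI counts per gene and spot of 1 NCD and 1 HFD liver section. The authors made these count matrices with Space Ranger 1.3.1 and deposited them as raw counts, without normalization, for all spots and for spots called over tissue. The build named in the submitters' processing notes was mm10, and gene positions were taken from GENCODE M21 on GRCm38. The tables held 32285 gene identifiers. Spot positions and images were not used here.

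UMIs of a gene or list were summed over the spots of a group and divided by all UMIs of those spots. Sums had exact Poisson intervals, shares exact Clopper-Pearson intervals and ratios exact conditional binomial intervals, at the 95% level. Intervals cover counting error only. Genes with fewer than 100 UMIs over both groups of a section were not counted. The limit was set on both groups together, so a gene could pass it through the group where it was high. Total UMIs were 13163371 in rich and 4583227 in marker-free spots of the NCD section, and 36662464 and 9626124 in those of the HFD section. Alternatives included thinning to 3000 UMIs (seed 1 and, later, seed 2) and Mantel-Haenszel ratios over 10 depth bins or over 5 depth and 3 zone bins. Leaving out vessel and plasma spots, the second seed and leaving out the top spot of a gene were chosen after seeing the data.

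Genes named in the text were the 15 with the highest lower end and the 10 with the lowest upper end of the interval in each section, the shared partners, and the genes of 26 lists. The rule, the members and the lists were chosen with earlier results of these data known. The code was tested on simulated data. Calculations ran in Python 3.11.15 with scipy 1.17.1, numpy 2.4.6 and pandas 2.3.3, and figures were drawn with matplotlib 3.10.9.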

Additional observations from a re-analysis of the deposited data

Results flagged for a closer look

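For 8 gene lists the log2 ratio of rich to marker-free spots had opposite signs in the 2 sections, and the interval excluded an even ratio in each. Other lists also had opposite signs, with an interval that held an even ratio in 1 of the sections. With 1 section per diet the difference between the sections was not tested, and diet, animal and capture area cannot be told apart.

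The widest gap was that of the B and plasma cell list, at −3.47 (NCD) and 0.36 (HFD), where 1 marker-free spot of the NCD section held 79.1% of the Iglc1 UMIs. Without vessel and plasma spots the list had −0.45 and −0.08. Sinusoidal endothelial genes had −0.17 and 0.29, midlobular genes 0.31 and −0.061, and macrophage transcription factors −0.11 and 0.16. Scavenger and apoptotic cell receptors had −0.13 and 0.14, periportal genes 0.057 and −0.19, hepatocyte genes 0.071 and −0.11, and genes of LXR and cholesterol efflux −0.02 and 0.024.

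Several of these signs depended on depth. Standardized over depth, the NCD values were 0.02 for sinusoidal endothelial genes, 0.12 for scavenger receptors, 0.00 for transcription factors, −0.03 for periportal genes and −0.01 for hepatocyte genes. Midlobular genes kept 0.14 (NCD) and −0.03 (HFD) under that setting, and the latter became 0.08 with zone taken into account as well.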

How the results depend on the processing

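No paired analysis was possible because each diet had 1 section, and no replicate could be left out. The Kupffer core ratio stayed above 0 in all 24 alternatives over both sections. From 0.18 in the NCD section it moved to 0.26 with both groups thinned, 0.60 with the rule applied after thinning, 0.40 standardized over depth, 0.36 over depth and zone, and 0.27 as a mean over spots. From 0.53 in the HFD section it moved to 0.43 with both groups thinned. Held-out ratios moved with the rule applied after thinning, to 1.04 for Clec4f and 1.05 for Cd5l in the NCD section and to 1.12 for Cd5l and 1.31 for Vsig4 in the HFD section.

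Counts of genes past the fold depended on most settings, and part of that follows from how many UMIs the groups hold. They are given as higher in NCD, lower in NCD, higher in HFD, lower in HFD, higher in both and lower in both, against 67, 153, 275, 299, 15 and 32. With both groups thinned they were 22, 45, 118, 65, 8 and 6, and with seed 2, chosen after seeing the data, 25, 39, 144, 67, 8 and 4. A limit of 2-fold gave 4, 16, 49, 117, 0 and 8, and a limit lower than 1.5-fold 327, 823, 1055, 728, 68 and 93. A minimum of 50 UMIs per gene gave 168, 398, 437, 539, 33 and 66, and of 300 UMIs 7, 18, 108, 102, 5 and 7. With the rule applied after thinning, NCD counts were 160 and 247, and 13 genes were lower in both. Standardized over depth, 199 were higher in NCD, 31 in both, and 7 lower in both, and over depth and zone 174, 23 and 12. A minimum of 1000 UMIs per spot gave 41 higher in NCD and 9 in both, and means over spots 134 higher in NCD and 18 lower in both. Without vessel and plasma spots, 102 were lower in HFD and 6 in both, counted over genes with 100 UMIs or more in the spots left. The other 45 of 96 counts stayed within 1.5 times.

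Of the other lists and the named genes, 2 and 8 values past 1.5-fold changed sign, and the cause was not tested. With the rule applied after thinning, the NCD smooth muscle list became 0.47 and Acta2 0.78, and in the HFD section dendritic cell genes became 0.005, Jchain −0.13, Ighm −2.58 and Iglc2 −1.48. Jchain became −0.45 in the HFD section without vessel and plasma spots. Ighg2c in the NCD section became 0.31 over depth and 0.21 over depth and zone, and Ighg2b −0.008 with a minimum of 1000 UMIs. Genes near 100 UMIs are at the limit of what this depth can show.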

Other observations

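Mup7, a major urinary protein of hepatocytes whose near-identical relatives may share its reads, had a log2 ratio of 1.35 (0.88–1.85) in the HFD section, with 398 UMIs in rich and 41 in marker-free spots, and of 0.18 (0.14–0.22) in the NCD section. Its level was 10.9 against 4.26 CPM in the HFD section and 1561 against 1379 CPM in the NCD section.

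Some genes were lower by a wide margin in rich spots of the HFD section while too few UMIs were found in the NCD section to count them. Cnn1, calponin of smooth muscle, had −3.32, Cpe, a carboxypeptidase that processes peptide hormones, −3.13, Sfrp1, a secreted inhibitor of Wnt signals, −3.05, and Tnnt2, a troponin, −2.87. Mfap4, an extracellular matrix protein, had −2.79, Actg2, an actin of smooth muscle, −2.74 and Msmp −2.48. Cnn1, Cpe, Sfrp1, Tnnt2 and Actg2 had 55, 36, 50, 39 and 57 UMIs in rich spots of the HFD section. They passed the limit of 100 UMIs there through the marker-free spots, where they were high. Without vessel and plasma spots, Cnn1 had −1.22, Actg2 −0.28 and Mfap4 −1.43, whereas Sfrp1 had −2.72, Cpe −2.58 and Msmp −2.37.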
